A study of Mus musculus with 9 samples.

Results

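The genes described here encode the voltage-gated sodium and calcium channels and the potassium channels, with the subunits that assemble with them. Probes were chosen by name: potassium channel symbols (Kcn with a family letter and a number), sodium channel symbols (Scn) and calcium channel symbols (Cacna, Cacnb, Cacng and Cacna2d). Kcne2, Kcnj13 and Kcnq1ot1 were left out by that rule, which reads names only but was set with earlier results of these data known. Kcne2 and Kcnj13 are on the list of choroid plexus markers used below. Of the 41174 probes on the array, 194 matched, for 120 gene names. A probe was kept when it was well above background on 3 or more of the 9 arrays, which left 167 probes of 109 genes, among 24891 genes tested in all. The 11 names that dropped out were Kcna5, Kcne1l, Kcnj1, Kcnj2, Kcnj5, Kcnmb4, Kcns3, Kcnv1, Kcnv2, Scn7a and Scn9a.

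Cells were sorted from the brains of mice aged 6 to 8 weeks that carried a reporter transgene, green fluorescent protein under the Sox2 promoter (Sox2-GFP) or a red one under the Dcx promoter (DCX-DsRed). The study had 3 groups: from the hippocampus, cells with either reporter, and from the subventricular zone (SVZ, the wall of the lateral ventricle), cells with Sox2-GFP. Each group had 3 arrays (replicates A, B and C), each with amplified RNA of 1000 cells from 10 pooled dissections, and no treatment is labelled. The series title and design set stem cells against their neuronal progeny, and the same reporter in both regions. Sox2 promoter activity is known from neural stem cells and from astrocytes and ependyma, so the reporter marks more than stem cells, and Dcx promoter activity is known from immature neurons. The labels do not say whether the 3 arrays of a group are independent pools. The p-values therefore reflect no more than how far these 9 arrays scatter, and that scatter may be technical.

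Potassium channels set the resting potential of a cell and end its action potentials, voltage-gated sodium channels start them, and voltage-gated calcium channels turn them into calcium entry. Neurons carry most of these channels and place them at the axon initial segment, at nodes of Ranvier, on dendrites and at terminals. Glia of the adult brain, including the stem cells, rest near the potassium potential through inward rectifier and two-pore potassium channels.

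A level is log2 of the processed signal minus the same array's 75th percentile, so 0 is that percentile and 1 unit is a factor of 2. Probes differ in how well they bind, so levels are compared between arrays and not between genes. Differences are between group means, with the standard error (SE) and adjusted p of limma over all 24891 genes, and a gene passed at an adjusted p under 0.05. The comparisons share groups, so they are not independent of each other.

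The arrays had 80.4% to 88.4% of their probes well above background. Neither Sox2 nor Dcx followed the labels of the sorts. Sox2 was higher on every DCX-DsRed array, at 1.33 to 1.74, than on every hippocampal Sox2-GFP array, at -0.92 to 0.96 (difference -1.27, adjusted p = 0.327), and lay at 0.94 to 2.30 in SVZ Sox2-GFP cells. Dcx was at -1.26 to 1.30 in DCX-DsRed cells and at -2.85 to -0.17 in hippocampal Sox2-GFP cells, which overlapped (adjusted p = 0.778). On SVZ arrays A and B Dcx, at 2.60 and 3.07, was above every DCX-DsRed array, and on SVZ C, at -2.34, it was below every one. The 12 myelin markers (Mbp among them) were above background on every DCX-DsRed array, and their list median there was 3.99 to 4.57. Groups are therefore named by their labels alone, and every comparison is between libraries so labelled. Hippocampal Sox2-GFP array C had a correlation over genes of 0.816 and 0.783 with replicates A and B, which correlated with each other at 0.919. The SVZ arrays correlated with each other at 0.820 to 0.840, close to the values of array C, and the DCX-DsRed arrays at 0.869 to 0.917. Of the 3 slides, slide 1 held DCX-DsRed A and B and SVZ A, slide 2 carried the A and B arrays of hippocampal Sox2-GFP cells and no other group, and slide 3 held hippocampal Sox2-GFP C, DCX-DsRed C and SVZ B and C.

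As a set, the channel genes were about as often changed as any genes. In hippocampal Sox2-GFP against DCX-DsRed cells, 5 of 109 passed (4.59%), where 3.17% of all genes tested passed. Of these, 2 were higher, where 1.74% of all genes were, and 3 were lower, where 1.43% were. In SVZ against hippocampal Sox2-GFP cells, 1 of 109 passed (0.917%) and was lower in the SVZ, where 0.398% of all genes passed, 0.354% as lower and 0.0442% as higher. In SVZ Sox2-GFP against hippocampus DCX-DsRed cells, 2 of 109 passed (1.83%) and both were higher, where 1.55% of all genes passed, 0.542% as higher and 1.00% as lower. Kcnh1, in the first and second of these counts, passed the filter only through the group where it is high. The median difference of the 109 genes was -0.14, 0.20 and 0.07 in these comparisons, beside -0.08, 0.07 and -0.03 over all genes. In the same order, 55.0%, 31.2% and 43.1% of the 109 genes had a difference below 0, beside 53.8%, 45.6% and 51.7% of all genes.

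The groups did not overlap for 23 of the 109 genes in hippocampal Sox2-GFP against DCX-DsRed cells (21.1%, where 24.7% of all genes did not), 7 of them higher and 16 lower (11.4% and 13.3% of all genes). They did not overlap for 19 in the comparison of regions (17.4%, where 16.9% of all genes did not), 13 higher and 6 lower in the SVZ (8.83% and 8.10% of all genes). For SVZ Sox2-GFP against DCX-DsRed cells the number was 22 (20.2%, where 21.0% of all genes did not overlap), 12 higher and 10 lower (10.6% and 10.4% of all genes). At an unadjusted p under 0.05 there were 16, 11 and 11 of the 109 genes in these comparisons (14.7%, 10.1% and 10.1%), where 16.9%, 10.8% and 13.7% of all genes were. These shares lie near the background of each comparison. The median SD of a channel gene over a group's 3 arrays was 0.55 in hippocampal Sox2-GFP, 0.43 in DCX-DsRed and 0.50 in SVZ Sox2-GFP cells.

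**Figure D1:**
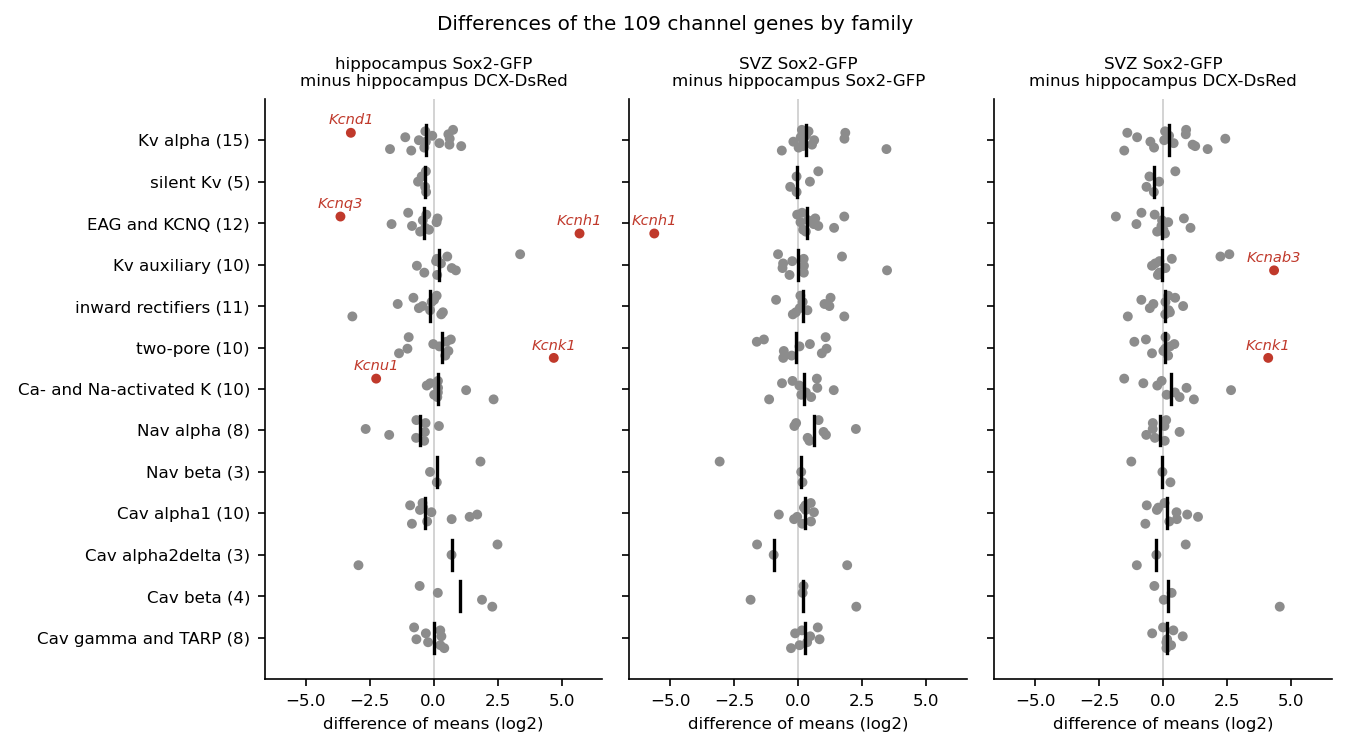
Differences of the 109 kept channel genes in the 3 comparisons, in log2 units on the horizontal axis, by family on the vertical axis with the number of genes in brackets. Each point is 1 gene, red where it passed the test, and the black bar is the family's median. Most points lie near 0, and 6 named genes account for the 8 red points.

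Kcnk1 passed against DCX-DsRed cells from both Sox2-GFP groups. It encodes TWIK-1, a two-pore potassium channel that gives a background leak and is known from astrocytes. Against DCX-DsRed cells Kcnk1 was 25.9-fold higher in the hippocampal Sox2-GFP group and 17.2-fold higher in the SVZ group. Kcnk1 lay at 0.82, 0.72 and 2.28 on hippocampal Sox2-GFP arrays A, B and C, at -3.64, -3.17 and -3.46 on DCX-DsRed arrays, and at 0.71, 0.06 and 1.27 on SVZ arrays. Every array of both Sox2-GFP groups was thus above every DCX-DsRed array, and the Sox2-GFP groups overlapped each other. The difference was 4.70 (SE 0.51, adjusted p = 0.0042) in the hippocampus and 4.11 (SE 0.51, adjusted p = 0.0124) for SVZ against DCX-DsRed cells, and -0.59 (adjusted p = 0.716) between the regions.

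The hippocampal Kcnk1 difference passed with each array left out in turn, at 4.19 to 4.98. With normexp background correction the folds against DCX-DsRed cells were 16.3 in the hippocampus and 10.6 in the SVZ, and both passed. Blocking on slide gave 5.74, and within slide 3, where hippocampal Sox2-GFP is replicate C alone, it was 5.74 with an adjusted p of 0.223 on 1 residual degree of freedom, where no gene of the array passed. For SVZ against DCX-DsRed cells Kcnk1 differed by 4.12 within slide 1 and by 4.13 within slide 3, and neither passed. Without DCX-DsRed replicate A it missed the threshold (adjusted p = 0.0599).

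Kcnh1 encodes EAG1, a voltage-gated potassium channel of neurons that is also known from proliferating cells. Its probe was well above background on the 3 hippocampal Sox2-GFP arrays, at -1.12, -2.20 and 1.28, and on none of the others. The DCX-DsRed arrays gave -5.48, -7.02 and -6.65, and the SVZ arrays -6.21, -6.07 and -6.65. Kcnh1 was thus detected in 1 group only, and replicate C was its highest array. It passed the filter on dim probes only through the group where it is high, so it had to differ, and its p-values and its place in the counts of 5 and 1 are a description. It was at least 29.7-fold higher in hippocampal Sox2-GFP than in DCX-DsRed cells (measured difference 5.70, SE 0.84, adjusted p = 0.0128) and at least 40.6-fold lower in the SVZ (measured difference -5.63, SE 0.84, adjusted p = 0.0376). An "at least" fold sets the brighter mean against, on each dim array, that array's lowest detected signal or the probe's own signal, whichever is higher. A second Kcnh1 probe, well above background on 3 arrays as well, differed by 6.82 and -7.13.

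Both Kcnh1 differences were smaller with normexp background correction, at 3.30 (adjusted p = 0.0271) and -3.33 (adjusted p = 0.0808), under what the bounds give, so the bounds hold for the processed signal and the call between regions was lost with normexp. That call was also lost with arrays scaled to their median (adjusted p = 0.0743) or only the compared groups in the fit (adjusted p = 0.15). Without hippocampal Sox2-GFP replicate C the differences were 4.72 and -4.65 and still passed, and without replicate B they were 6.47 and -6.39. Blocking on slide, they were 7.84 and -7.68. The hippocampal call was lost without DCX-DsRed B or C (adjusted p = 0.0541 and 0.0519). The call between regions was lost without any 1 of 7 arrays, at an adjusted p up to 0.113: hippocampal Sox2-GFP A and every DCX-DsRed and SVZ array.

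The stretches before the start sites of Kcnk1 and Kcnh1 are shown because only these genes, among the channel genes that passed, had a listed window. They are the 250 bases before the start in RefSeq's GRCm38.p6 table, on the plus strand, chr8:125994852-125995101 for Kcnk1 and chr1:192190527-192190776 for Kcnh1. Capitals mark matches on either strand to the GC box, whose letters are GGGCGG, to the CCAAT box by its own name, or to the TATA box, whose letters are TATAAA, and no matches overlap.
Kcnk1: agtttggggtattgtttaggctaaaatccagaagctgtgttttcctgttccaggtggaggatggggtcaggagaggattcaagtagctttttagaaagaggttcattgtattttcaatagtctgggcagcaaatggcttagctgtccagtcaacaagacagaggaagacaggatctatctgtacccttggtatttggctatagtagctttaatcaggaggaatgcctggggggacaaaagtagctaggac
Kcnh1: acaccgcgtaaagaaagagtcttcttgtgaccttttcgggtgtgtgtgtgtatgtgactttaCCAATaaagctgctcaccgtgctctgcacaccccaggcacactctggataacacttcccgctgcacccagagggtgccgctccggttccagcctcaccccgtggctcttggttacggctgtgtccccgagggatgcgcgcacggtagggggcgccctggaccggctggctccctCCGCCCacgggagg
The Kcnh1 window held 1 CCAAT box and, on the reverse strand, 1 GC box, and the Kcnk1 window none of the 3 motifs. The Kcnk1 window was 44.4% G and C with no CG dinucleotide, and the Kcnh1 window was 62% G and C. The table held 80 of the 109 genes, and in its first listed window 45% of these had a GC box, 27.5% a CCAAT box and 2.5% a TATA box, beside 32.9%, 34.5% and 13.0% of all 27025 genes in the table. Windows of Kcnq3, Kcnd1, Kcnu1 and Kcnab3 were not among them.

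Of the 109 genes, 3 (2.75%) passed as lower in hippocampal Sox2-GFP than in DCX-DsRed cells, where 1.43% of all genes did. They were Kcnq3, Kcnd1 and Kcnu1. Kcnq3 encodes Kv7.3, a subunit of the M-current channels that restrain repetitive firing at the axon initial segment. It lay at -4.17, -3.80 and -5.15 on the hippocampal Sox2-GFP arrays, at -1.53, -0.84 and 0.18 on the DCX-DsRed arrays and at -1.55, -2.21 and -3.98 on the SVZ arrays. The hippocampal groups did not overlap. SVZ A and B lay between them, and SVZ C lay within the hippocampal Sox2-GFP range. Kcnq3 was 12.5-fold lower (difference -3.64, SE 0.72, adjusted p = 0.0367), and 5.58-fold lower with normexp (adjusted p = 0.0299). Blocking on slide gave -4.35 and did not pass (adjusted p = 0.0875), nor did it with a random slide effect (adjusted p = 0.0511), and the call was lost without any 1 of 7 arrays, which were all but SVZ A and C (adjusted p up to 0.11).

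Kcnd1 encodes Kv4.1, a pore-forming subunit of the fast A-type current. Its arrays read -0.04, 0.68 and -1.71 in hippocampal Sox2-GFP, 2.99, 3.08 and 2.57 in DCX-DsRed and 2.48, 0.70 and 1.27 in SVZ Sox2-GFP cells. The DCX-DsRed arrays were the highest and the hippocampal Sox2-GFP arrays the lowest, with SVZ B 0.70 just over hippocampal Sox2-GFP B 0.68. Kcnd1 was 9.41-fold lower in hippocampal Sox2-GFP than in DCX-DsRed cells (difference -3.23, SE 0.67, adjusted p = 0.0438). Leaving out replicate C of hippocampal Sox2-GFP gave a 5.88-fold difference that did not pass (adjusted p = 0.0606), and the call was also lost without hippocampal Sox2-GFP A, SVZ B or C or any DCX-DsRed array. Blocking on slide, the difference was -3.93 (adjusted p = 0.0168), and with only the compared groups in the fit it did not pass (adjusted p = 0.0671).

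Kcnu1 encodes Slo3, a pH-sensitive potassium channel known from sperm. It lay at -1.96, -1.27 and -3.01 in hippocampal Sox2-GFP, 0.40, 0.14 and -0.04 in DCX-DsRed and -1.34, -1.55 and -1.17 in SVZ Sox2-GFP cells, so that every DCX-DsRed array was above every array of the other groups. The hippocampal difference was -2.24 (SE 0.45, adjusted p = 0.0385), or 4.74-fold, and for SVZ against DCX-DsRed cells it was -1.52 (adjusted p = 0.17). Blocking on slide, the hippocampal difference was -3.06 (adjusted p = 0.0178), and with only the compared groups in the fit it did not pass (adjusted p = 0.0899). The hippocampal call was lost without any 1 of 7 arrays, all but hippocampal Sox2-GFP B and C, with adjusted p up to 0.136.

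Kcnab3, which encodes a cytoplasmic beta subunit of Kv channels, passed in SVZ Sox2-GFP against DCX-DsRed cells. It lay at -1.61, -0.48 and -0.95 in SVZ Sox2-GFP, at -5.56, -5.64 and -4.86 in DCX-DsRed and at -2.58, -5.62 and -5.25 in hippocampal Sox2-GFP cells, and was above background on 3, 1 and 2 of the arrays in that order. The SVZ arrays were above all others. The difference from DCX-DsRed cells was 4.34 (SE 0.77, adjusted p = 0.0378), or 20.2-fold on the processed signal and 7.34-fold with normexp (adjusted p = 0.00943). That from hippocampal Sox2-GFP cells was 3.47 (adjusted p = 0.148), and 4.42 without hippocampal Sox2-GFP A, where it passed (adjusted p = 0.0445). Within slide 1 the difference from DCX-DsRed cells was 3.99 and within slide 3 it was 4.14, and neither passed. Blocking on slide gave 4.06 (adjusted p = 0.0604), and the call was lost without any DCX-DsRed or SVZ array.

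**Figure D2:**
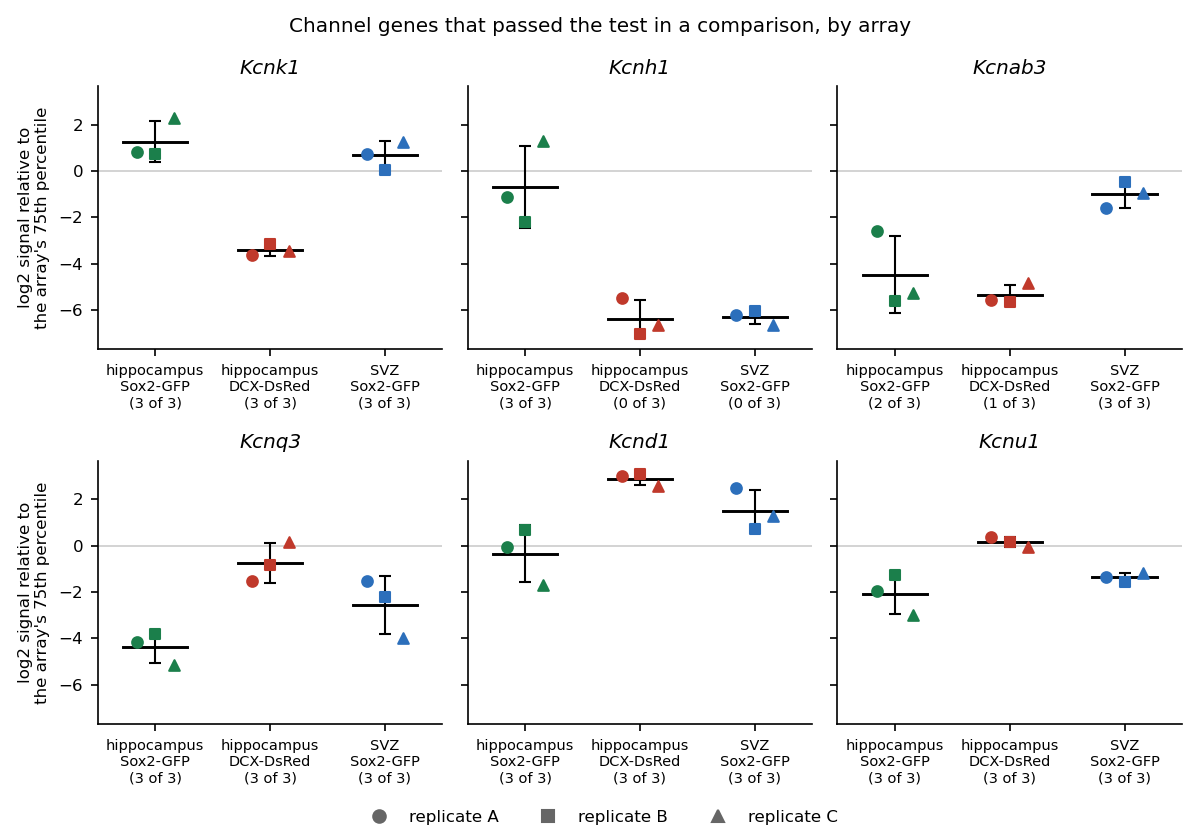
Level of the 6 channel genes that passed in a comparison, in log2 units above or below the array's 75th percentile on the vertical axis, by group on the horizontal axis. Points are arrays, bars are the mean and SD of 3 arrays, and brackets give how many arrays of the group were well above background. Kcnk1 is low on the 3 DCX-DsRed arrays, and Kcnh1 is above background on the 3 hippocampal Sox2-GFP arrays alone.

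Marker genes of other cell types moved with these comparisons. In the hippocampal comparison 3.17% of all genes passed, 1.74% as higher. All 7 measured choroid plexus markers had a higher mean in the hippocampal Sox2-GFP group than in the DCX-DsRed group, and 6 passed (median difference 5.20). This list includes Kcne2, the channel subunit left out above. Their summed signal, in log2 units, was 5.58 to 7.27 in hippocampal Sox2-GFP, 0.61 to 1.07 in DCX-DsRed and 0.62 to 1.33 in SVZ Sox2-GFP cells, with no overlap between the first and the others. Ependymal markers went the same way, with 6 of 7 passing (median 4.64) and summed levels of 3.76 to 4.58, -1.26 to -0.16 and 1.14 to 2.26. Enkur and Tmem212 of that list were on no DCX-DsRed array above background.

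Of the 12 myelin markers, 7 passed as lower in hippocampal Sox2-GFP than in DCX-DsRed cells (median -4.81), where 1.43% of all genes did. Their summed levels were 2.20 to 5.45, 8.11 to 8.45 and 4.73 to 6.44 in hippocampal Sox2-GFP, DCX-DsRed and SVZ Sox2-GFP cells. In SVZ Sox2-GFP against DCX-DsRed cells 2 of these 12 passed as lower (median -3.18), where 1.00% of all genes did. None of the 11 astrocyte markers passed by limma (0, 0 and 6 at an unadjusted p under 0.05 in the 3 comparisons), with summed levels of 3.41 to 6.59, 4.77 to 5.31 and 6.49 to 7.47 in the same order. The median of 10 mature neuron markers was -3.27 to -2.20, -1.37 to -1.06 and -1.62 to -0.28, so hippocampal Sox2-GFP arrays were below the others, and none of these markers passed by limma (1, 2 and 2 at an unadjusted p under 0.05). Kcnh1 was highest where the choroid plexus and ependymal lists were, and Kcnq3, Kcnd1 and Kcnu1 were highest where the myelin list was. Kcnk1 was also high in the SVZ, where the choroid plexus list was near its DCX-DsRed level. Kcnab3 was highest in the SVZ, where none of these 3 lists peaked. The astrocyte, mature neuron and immature neuron lists each had their highest array in the SVZ. The immature neuron median was 1.44, 1.25 and -1.21 on SVZ A, B and C. It was -1.50 to -0.27 in hippocampal Sox2-GFP and -1.20 to 0.23 in DCX-DsRed cells. The part of other cell types in these results was not tested. In pooled RNA, fewer cells of a type and less RNA per cell cannot be told apart.

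**Figure D3:**
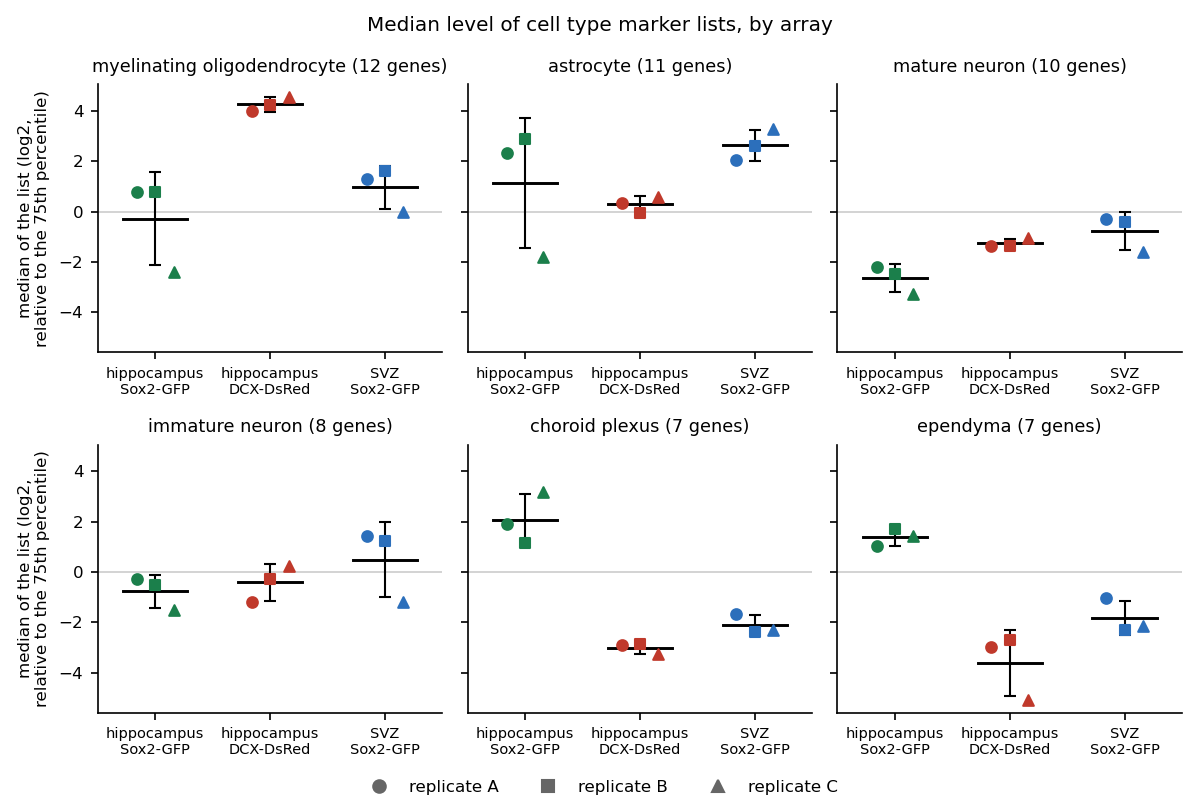
Median level of 6 lists of cell type markers on each array, in log2 units above or below the array's 75th percentile, by group. Points are arrays, bars are the mean and SD of 3 arrays. Choroid plexus and ependymal markers are highest on the hippocampal Sox2-GFP arrays and myelin markers on the DCX-DsRed arrays, and hippocampal Sox2-GFP replicate C lies below its group in the astrocyte and myelin lists.

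Among the 15 kept genes of the Kv1 to Kv4 pore-forming subunits (Kcna, Kcnb, Kcnc and Kcnd), Kcnd1 alone passed in a comparison. The family median was -0.30 in hippocampal Sox2-GFP against DCX-DsRed, 0.28 between regions and 0.23 in SVZ Sox2-GFP against DCX-DsRed cells. Kcna1, the Kv1.1 subunit beside nodes of Ranvier, lay at 1.17, 0.78 and 0.84 in hippocampal Sox2-GFP, 1.99, 1.86 and 1.56 in DCX-DsRed and -0.15, 0.82 and 0.18 in SVZ Sox2-GFP cells. Its DCX-DsRed arrays were above all others, but neither difference from them passed, -0.87 (adjusted p = 0.251) and -1.52 (adjusted p = 0.0854). Kcna2, its Kv1.2 partner, read 0.86, 0.11 and -5.06 in hippocampal Sox2-GFP cells, 0.22 to 0.43 in DCX-DsRed and 0.80 to 3.49 in SVZ Sox2-GFP cells. The hippocampal difference was -1.70 (adjusted p = 0.597) with replicate C and 0.14 (adjusted p = 0.95) without it. Kcnd2, the Kv4.2 subunit of neuronal dendrites, differed by -0.32 (adjusted p = 0.672) in the hippocampus, and its other probe gave 0.04.

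None of the 5 silent Kv subunits (Kcnf, Kcng and Kcns), which do not form channels alone, passed in any comparison by limma, and 0 had an unadjusted p under 0.05. All 5 had a lower mean in hippocampal Sox2-GFP than in DCX-DsRed cells, where 53.8% of all genes did. The differences ran from -0.61 to -0.29, and the groups overlapped in each case. Kcng4 had the smallest p of these, with a difference of -0.61 (SE 0.38, adjusted p = 0.469).

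Of the 12 EAG and KCNQ genes, Kcnh1 and Kcnq3 passed. The family median was -0.37 in the hippocampal comparison, with 3 genes of positive and 9 of negative difference. Of all genes, 53.8% had a negative difference there. Among the 10 auxiliary subunits of Kv channels (Kcnab, Kcne and Kcnip), only Kcnab3 passed. Kcne1, which slows the Kv7.1 channel, was at 3.02 on hippocampal Sox2-GFP replicate C and between -0.39 and 0.37 on every other array.

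None of the 11 inward rectifier genes passed by limma; at an unadjusted p under 0.05 there was 1 in the hippocampal comparison and 0 in the others. Kcnj10 encodes Kir4.1, the main potassium channel of astrocytes and also of oligodendrocytes. It lay at 0.73, 1.74 and -5.13 in hippocampal Sox2-GFP, 2.38, 2.03 and 2.46 in DCX-DsRed and -0.15, 0.99 and 1.89 in SVZ Sox2-GFP cells. Every DCX-DsRed array was above every Sox2-GFP array. The hippocampal difference was -3.17 (SE 1.57, adjusted p = 0.359), and replicate C set most of it: without that array it was -1.05 (adjusted p = 0.476), and blocking on slide, where replicate C is the only hippocampal Sox2-GFP array on a shared slide, gave -8.03 (adjusted p = 0.00623).

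Kcnj16, which encodes Kir5.1, the partner of Kir4.1, had levels of 1.5, 1.51 and -0.79 in hippocampal Sox2-GFP, 1.44, 1.24 and 0.84 in DCX-DsRed and 1.76, 1.51 and 2.58 in SVZ Sox2-GFP cells. Its hippocampal difference was -0.43 (adjusted p = 0.788), and 2 other probes gave 1.16 and 1.86, so its sign was not settled. Kcnj8, the Kir6.1 subunit of ATP-sensitive channels known from pericytes, differed by -0.79 (adjusted p = 0.654), and its other probe gave 0.02. Kcnj3, which encodes the G protein-gated channel GIRK1, had the smallest p of the family, with a difference of -1.40 (adjusted p = 0.263), and its other 2 probes gave 0.15 and 1.09.

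Of the 10 two-pore genes, Kcnk1 passed and the other 9 did not. Kcnk2, which encodes TREK-1, a stretch-gated leak channel found in astrocytes and neurons, lay at -0.49, -0.40 and -0.62 in hippocampal Sox2-GFP, 0.88, 0.92 and -0.24 in DCX-DsRed and 0.63, 1.09 and 0.08 in SVZ Sox2-GFP cells. The hippocampal Sox2-GFP arrays were below all others, but the differences did not pass, at -1.02 (adjusted p = 0.271) in the hippocampus and 1.1 (adjusted p = 0.408) between regions. The median of the family was 0.34 in the hippocampal comparison.

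Of the 10 genes of calcium- and sodium-activated potassium channels, Kcnu1 passed. Kcnma1, which encodes the large-conductance BK channel, lay at -2.38, -3.26 and 0.41 in hippocampal Sox2-GFP, -2.27, -4.38 and -5.61 in DCX-DsRed and -4.62, -3.57 and -0.46 in SVZ Sox2-GFP cells. These groups overlapped, and the hippocampal difference was 2.35 (SE 1.37, adjusted p = 0.439). Kcnn2, the small-conductance SK2 channel, read -0.36, -0.80 and -5.46 in hippocampal Sox2-GFP, -3.01, -3.32 and -4.10 in DCX-DsRed and -1.52, -0.99 and 0.04 in SVZ Sox2-GFP cells. It did not pass on 9 arrays (2.65, adjusted p = 0.396, for SVZ against DCX-DsRed cells). Without hippocampal Sox2-GFP replicate C it passed as 2.90 higher in hippocampal Sox2-GFP (adjusted p = 0.0401) and 2.65 higher in SVZ Sox2-GFP cells (adjusted p = 0.0343) than in DCX-DsRed cells. Kcnn2 was outside the rule for named genes and was chosen after its values were seen, as were Kcne1, Scn2b and Dlg4.

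None of the 11 sodium channel genes passed in any comparison by limma; at an unadjusted p under 0.05 there were 2 in the hippocampal comparison, 1 between regions and 0 in SVZ Sox2-GFP against DCX-DsRed cells. Of the 8 kept pore-forming subunits, 7 had a lower mean in hippocampal Sox2-GFP than in DCX-DsRed cells, where 53.8% of all genes did. The median difference was -0.52. Their median level was -1.66, -1.65 and -3.57 on hippocampal Sox2-GFP A, B and C, and -1.33, -1.68 and -1.44 on the DCX-DsRed arrays. Replicate C was thus the only array of its group far below the DCX-DsRed arrays. Among the subunits whose groups did not overlap were Scn1a and Scn3a. Scn1a, which encodes Nav1.1 of inhibitory neurons and axon initial segments, lay at -3.48, -3.55 and -4.63 in hippocampal Sox2-GFP, -2.24, -2.32 and -1.90 in DCX-DsRed and -3.57, -2.19 and -2.67 in SVZ Sox2-GFP cells. The hippocampal Sox2-GFP arrays were the lowest but for SVZ A. Its hippocampal difference was -1.74 (SE 0.47, adjusted p = 0.0983). It passed with quantile normalization (-1.79, adjusted p = 0.0494), with a random slide effect (-2.20, adjusted p = 0.0498) and with slide blocked (-2.99, adjusted p = 0.0171).

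Scn3a, the Nav1.3 subunit prominent in developing neurons, lay at -4.31, -4.45 and -8.00 in hippocampal Sox2-GFP, -3.75, -3.11 and -1.94 in DCX-DsRed and -4.39, -2.42 and -3.20 in SVZ Sox2-GFP cells. The hippocampal groups did not overlap. The difference was -2.65 (adjusted p = 0.24), and -1.45 (adjusted p = 0.372) without hippocampal Sox2-GFP replicate C. Scn8a, the Nav1.6 subunit of mature nodes, differed by -0.67 (adjusted p = 0.698), and by 0.22 (adjusted p = 0.871) without that array. The other Scn8a probe gave 0.098 on all arrays. With slide blocked, where hippocampal Sox2-GFP cells are compared through array C alone, the hippocampal differences of Scn3a and Scn8a were -6.09 (adjusted p = 0.00496) and -2.90 (adjusted p = 0.0296), and both passed. Scn1a, Scn3a and Scn8a passed between regions in that fit too, at 2.08, 5.17 and 2.80 (adjusted p up to 0.0344). Scn2a, the Nav1.2 subunit of unmyelinated axons, differed by -0.34 (adjusted p = 0.81).

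Among the beta subunits, which tune gating and adhere to other cells, the hippocampal difference was -0.14 for Scn2b (adjusted p = 0.876) and 1.83 for Scn3b (adjusted p = 0.549). Scn3b lay at -0.86, -1.48 and 2.17 in hippocampal Sox2-GFP cells, so replicate C was the high array. Its DCX-DsRed arrays ran from -2.80 to -0.77 and its SVZ arrays from -5.30 to -0.38.

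None of the 25 calcium channel genes passed by limma, of 10 pore-forming alpha1, 3 alpha2delta, 4 beta and 8 gamma subunits kept; at an unadjusted p under 0.05 there were 3, 1 and 2 in the comparisons in the same order. Cacna1d, which encodes Cav1.3, an L-type channel that opens near rest, came closest among the alpha1 subunits. Its arrays read -0.85, 0.05 and 0.47 in hippocampal Sox2-GFP, -1.23, -1.85 and -1.49 in DCX-DsRed and 0.08, -0.38 and -0.17 in SVZ Sox2-GFP cells. Both Sox2-GFP groups were above every DCX-DsRed array, by 1.41 (SE 0.40, adjusted p = 0.116) and 1.36 (SE 0.40, adjusted p = 0.17). All 4 Cacna1d probes had a positive hippocampal difference, from 1.20 to 3.63. The mean over them passed, at 2.22 (adjusted p = 0.0154).

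Cacna1c, which encodes the L-type channel Cav1.2, differed by 0.71 (adjusted p = 0.443) in the hippocampus, and its other probe by -1.89, so its sign was not settled. Cacna1a, the P/Q-type channel of nerve terminals, differed by -0.85 (adjusted p = 0.54), and by -0.14 (adjusted p = 0.916) without hippocampal Sox2-GFP replicate C. The other Cacna1a probe gave 0.20 on all arrays. Cacna2d1, an alpha2delta subunit that carries channels to the membrane, lay at -1.16, -4.10 and -4.92 in hippocampal Sox2-GFP and -0.72, -0.49 and -0.17 in DCX-DsRed cells. These did not overlap, yet the difference of -2.94 (SE 1.07, adjusted p = 0.212) did not pass, and its other probe gave -0.16.

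Cacnb2, a beta subunit that binds the pore inside the cell, lay at -0.54, -1.14 and 0.43 in hippocampal Sox2-GFP, -2.12, -2.10 and -2.70 in DCX-DsRed and -1.63, -2.70 and -2.52 in SVZ Sox2-GFP cells. The hippocampal Sox2-GFP arrays were above all others. The differences were 1.89 (SE 0.49, adjusted p = 0.0862) from DCX-DsRed cells and -1.87 (adjusted p = 0.22) from hippocampus to SVZ, and they passed when slide was blocked, at 3.26 and -2.98 (adjusted p = 0.0121 and 0.0122). Of the other 2 Cacnb2 probes, one gave 2.30 and one -1.20 in the hippocampal comparison. The gamma subunits, several of which are known as AMPA receptor partners (TARPs), had hippocampal differences of -0.76 to 0.42. Cacng8 differed by -0.76 (adjusted p = 0.521) and Cacng4 by -0.67 (adjusted p = 0.553).

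Members were also grouped by where they are known to act. In the hippocampal comparison 3.17% of all genes passed, 16.9% had an unadjusted p under 0.05 and 53.8% had a lower mean in hippocampal Sox2-GFP cells, as did 60 of the 109 channel genes (55.0%). Of 5 measured glial members (Kcnj10, Kcnj16, Kcnk1, Kcnk2 and Kcnn2), 1 passed in the hippocampal comparison, Kcnk1, and the list median was -0.43. Of 10 members of the axon initial segment and node, 1 passed, Kcnq3, and the median difference was -0.52. A lower mean in hippocampal Sox2-GFP than in DCX-DsRed cells was found for 8 of them. Their median level was -1.74, -1.62 and -3.57 on hippocampal Sox2-GFP A, B and C, and -1.48 to -1.27 on the DCX-DsRed arrays. Of 9 members known from developing neurons, none passed by limma (3 at an unadjusted p under 0.05), 7 had a lower mean in hippocampal Sox2-GFP cells, and the median was -0.41. Of 6 members known from vessels and microglia none passed (1 at an unadjusted p under 0.05), and the median was -0.32. These lists are short, and nothing is read from their shares.

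Many members departed from their group on replicate C of hippocampal Sox2-GFP cells. That array lay more than 2 log2 units below both other arrays of its group for 13 genes and above both for 4. The 13 were Cacna1e, Cacna2d3, Cacnb1, Cacng5, Kcna2, Kcnh7, Kcnip3, Kcnj10, Kcnj16, Kcnmb1, Kcnn2, Scn3a and Scn8a, and the 4 were Kcne1, Kcnh1, Kcnma1 and Scn3b. No other array departed so from its group for more than 4 genes in either direction. On that array the astrocyte list median was -1.81, against 2.32 and 2.91 on A and B, and the myelin list median was -2.40, against 0.77 and 0.80. The choroid plexus list median was 3.16, against 1.92 and 1.16. The part of these cell types in the departures was not tested. These genes were picked for their values, and such counts were not made over all genes. The counts are thus a description and show nothing particular to channel genes. Over all genes, array C correlated with A and B at 0.816 and 0.783, and A with B at 0.919.

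**Figure D4:**
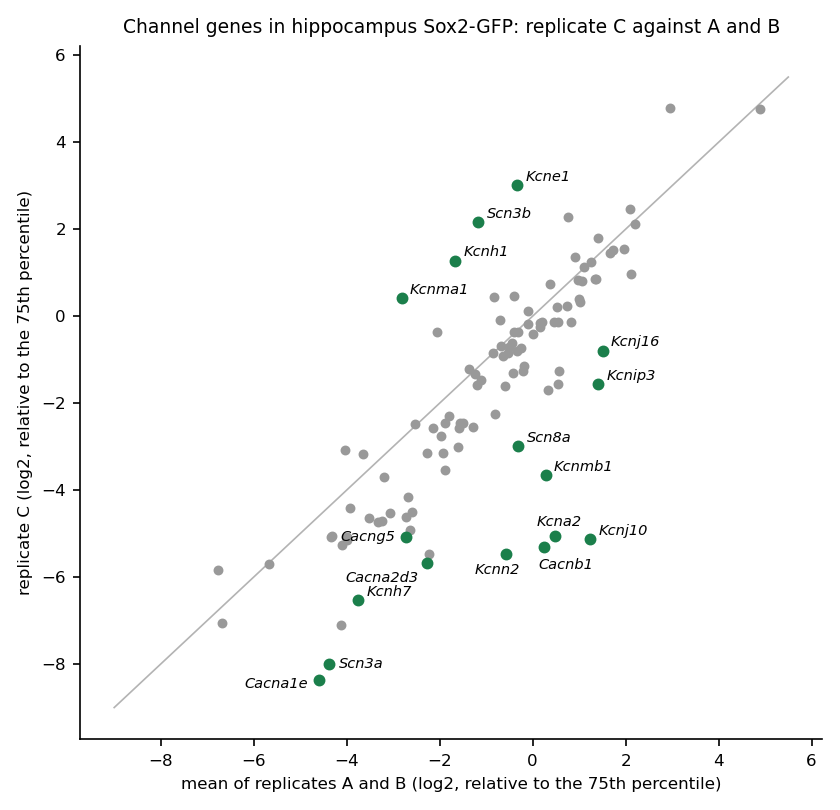
Level of the 109 channel genes on hippocampal Sox2-GFP replicate C (vertical axis) against the mean of replicates A and B (horizontal axis), both in log2 units above or below the array's 75th percentile. The line marks equal levels, and named green points lie over 2 log2 units outside both other arrays. Of these 17 genes, 13 lie below and 4 above.

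Genes that anchor or modulate these channels were described from a list of their own. Of 24 measured, 3 passed as lower and 1 as higher in both Sox2-GFP groups than in DCX-DsRed cells. Of all genes tested, 3.17% passed against DCX-DsRed cells in the hippocampal comparison and 1.55% in that of the SVZ. Cntn2, the axonal adhesion protein that gathers Kv1 channels beside nodes, lay at -1.91 to -0.70 in hippocampal Sox2-GFP, 3.81 to 4.62 in DCX-DsRed and -1.20 to 0.41 in SVZ Sox2-GFP cells, and every DCX-DsRed array was above all others. Its differences from DCX-DsRed cells were -5.52 (SE 0.53, adjusted p = 0.00302) and -4.33 (SE 0.53, adjusted p = 0.0124), the latter lost without DCX-DsRed A or B (adjusted p up to 0.0544). Cntn2 is known from oligodendrocytes as well as neurons. The myelin markers were also highest in DCX-DsRed cells, and their part in the Cntn2 differences was not tested.

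Lgi3, a secreted protein linked to Kv1 channels, differed by -4.06 (adjusted p = 0.0073) and -3.70 (adjusted p = 0.0166), the latter lost without any 1 DCX-DsRed array (adjusted p up to 0.0796). Dlg2, the scaffold PSD-93, differed by -4.78 (adjusted p = 0.0284) and -4.84 (adjusted p = 0.0397). Both Dlg2 calls were lost without hippocampal Sox2-GFP B or any DCX-DsRed array, the hippocampal one also without hippocampal Sox2-GFP C (-4.06, adjusted p = 0.0528) and the other also without any SVZ array. The hippocampal Dlg2 difference was -5.80 without hippocampal Sox2-GFP A, -4.09 with normexp and -6.64 when slide was blocked. Dlg4, the scaffold PSD-95, was higher by 2.78 (adjusted p = 0.012) and 2.25 (adjusted p = 0.0378).

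Among 15 measured pumps and transporters that maintain sodium, potassium and calcium gradients, 2 passed in the hippocampal comparison, where 3.17% of all genes did. Between regions 1 of them passed, Atp2b3, where 0.398% of all genes did. Atp1b1, the beta1 subunit of the sodium-potassium pump, was 14.5-fold higher in hippocampal Sox2-GFP than in DCX-DsRed cells (difference 3.86, SE 0.54, adjusted p = 0.011), and did not pass without DCX-DsRed A (adjusted p = 0.0507). Atp2b3, a plasma membrane calcium pump, was 10.8-fold higher there (difference 3.43, SE 0.53, adjusted p = 0.0156) and 16.8-fold lower in SVZ than in hippocampal Sox2-GFP cells (difference -4.07, SE 0.53, adjusted p = 0.0236). The hippocampal Atp2b3 call was lost without hippocampal Sox2-GFP A or DCX-DsRed A, and the regional one without either of these or any SVZ array. When slide was blocked the Atp2b3 differences were 4.83 and -5.18, and with normexp the regional one was -3.42. Choroid plexus markers moved with both genes, and their part was not tested. Of 16 measured ion channels of other families (among them Clcn2 and Trpm7), none passed in any comparison by limma, with 2, 2 and 4 at an unadjusted p under 0.05.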

How the data were processed

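Each of the 9 arrays (Agilent, 1 colour, Cy3) carried amplified RNA of sorted cells. The deposited files are scanner output of Feature Extraction 9.5.1.1, per the file headers. The processed intensity of each spot had a fitted spatial background surface subtracted and was not scaled between arrays, per the file headers. The deposited flag values (1 or 0, read here as other values) mark spots well above background, saturated or outlying, also per the file headers. For limma no version is listed in the submitters' processing notes, and the genome build is not given in the sources used here.

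Control spots and outlier-flagged spots were left out (464 probes lost, 40710 left), spots of a probe were averaged, and log2 of the processed intensity minus the array's 75th percentile was taken. Probes well above background on 3 or more of 9 arrays were kept, with 1 probe a gene, that of the highest mean. Probes were named by accession from RefSeq tables of GRCm38.p6 where possible (22951 probes). Other probes kept the name in the files, or took the current symbol where that name was an older one (3109 probes). limma 3.58.1 in R 4.3.3 fitted all 9 arrays (lmFit and eBayes, 6 residual degrees of freedom), and p-values were adjusted by Benjamini-Hochberg over 24891 genes. The fit was tested on simulated data. The number of arrays limits the precision.

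Genes named were the channel genes that passed, the smallest p of each family without one, a fixed list of well-known members and up to 3 genes a comparison that passed in each partner list; others are said to be chosen after their values were seen. Some genes of the fixed list are not reported here. The members and lists were chosen with earlier results of these data known. Alternatives were normexp background correction, other scalings, filters and probe rules, slide as a fixed or random block, single slides, the replicate letter as a block, only the groups compared, and each array left out. Within slide 1 was added after seeing the data.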

Additional observations from a re-analysis of the deposited data

How the results depend on the processing

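In hippocampal Sox2-GFP against DCX-DsRed cells, 5 channel genes passed. The number was 11 with slide as a block (4 of the 5 among them), 0 within slide 3, 2 with the replicate block, 3 with only the groups compared, and 1 to 4 with each array left out in turn. Between regions 1 passed. The number was 0 with normexp, with the arrays scaled to the median, with only probes above background on all arrays, within slide 3, with the replicate block and with only the groups compared, 12 with slide as a block, and 0 to 1 with each array left out. In SVZ Sox2-GFP against DCX-DsRed cells 2 passed. The number was 1 with only probes above background on all arrays, 1 with slide as a block, 4 with slide as a random block, 0 within slide 3, 0 within slide 1 (chosen after seeing the data), and 0 to 4 with each array left out. The highest of these, 4, was without hippocampal Sox2-GFP C, and the 0 was without DCX-DsRed A. With the replicate block it was 2, with 1 gene in common. Deviations of arrays with the same letter from their group means correlated at -0.04 to 0.12. Those of arrays with different letters were not set beside them, so whether the letters pair the arrays was not settled.

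Slide as a block compares hippocampal Sox2-GFP cells through array C alone, and fits within a slide leave 1 residual degree of freedom. It moved the median of all genes to -0.17 in the hippocampal comparison and 0.24 between regions. For the genes named that passed, 376 alternative values were computed: 0 changed direction and 103 no longer passed. Some alternatives cannot move a difference, such as leaving out an array of the group not compared. The genes were also named because they passed, so the count of directions is a description. Of 1957 alternative values for named genes that had not passed, 24 passed. Outside the 6 channel genes that passed, 13 others passed under some alternative, 7 of them only with slide as a block. The cause of these changes was not tested. Over all genes, 790, 99 and 385 passed in the 3 comparisons. With slide as a block 2024, 2128 and 794 passed, with the replicate block 489, 13 and 191, and with each array left out 251 to 773, 25 to 97 and 49 to 847. Between regions, 8 passed with only the groups compared, 50 with only probes above background on all arrays, 162 with normexp, 173 with the mean over probes and 164 with every probe on its own. With slide as a random block 834 passed in SVZ Sox2-GFP against DCX-DsRed cells. Probes not well above background, such as Kcnh1 in 2 groups, have only a bound there.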
